A study of Mus musculus with 4 samples.

Results

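The genes of glucose use were followed as 1 group of 46 genes that carry glucose into the cell, split it to pyruvate, turn pyruvate into lactate or acetyl-CoA, and run the tricarboxylic acid (TCA) cycle. The group was chosen by name, as 45 listed gene symbols plus the pyruvate kinase gene Pkm, which the tables list under its older symbol Pkm2. All 46 were found among 21832 genes, each on a single line and with a valid estimate in every library.

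Mouse retina of the slc:ICR background was taken at postnatal day 12, and RNA of its sorted cells was measured. Retinas were dissociated and sorted with an antibody to Cd73, a surface enzyme encoded by Nt5e that rod photoreceptors and their precursors carry, into a positive (Cd73P) and a negative (Cd73N) fraction. Each fraction was taken from wild-type retina, for which normal littermates served, and from Ezh2-cKO retina, in which floxed Ezh2 was removed by Cre driven from Dkk3 in retinal progenitor cells. Ezh2 is the methyltransferase of the Polycomb complex that places the repressive mark on histone H3 lysine 27, and the number of retinas behind each P12 library is not given in the sources used here. Because there was 1 library for each of the 4 groups, no difference has a replicate check and no p-value is given. Values are FPKM, the fragments counted for a gene per length of its exons and per size of its library, and where 4 values stand together they are in the order Cd73N wild type, Cd73N Ezh2-cKO, Cd73P wild type and Cd73P Ezh2-cKO. Ratios are differences of log2(FPKM + 1), which understate the change of weakly expressed genes, and a gene was called higher or lower once it differed by 1.5-fold there, the threshold the study used. Each standard error (SE) covers counting error within the libraries only.

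Glycolysis splits glucose to pyruvate in the cytosol, and the pyruvate is either reduced to lactate and exported or oxidised through pyruvate dehydrogenase and the TCA cycle in mitochondria. The retina is known for converting much of its glucose to lactate even when oxygen is present, with photoreceptors as the main site, and Müller glia are known to exchange fuel with the neurons around them. Several steps are served by more than 1 gene (paralogs), whose enzymes differ in affinity, regulation and tissue.

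Promoter sequences of 5 genes on which the comparisons turn are shown first: those of Slc2a1 and Slc16a1, the transporters that differed most between genotypes in Cd73N, of Hk2 and Pdk1, the pair lower in Cd73P of the library labelled Ezh2-cKO, and of Ldha, the gene higher in Cd73P of both genotypes. Each is the 250 bases before the transcript start from RefSeq on GRCm38.p6, 5′ to 3′ on the gene's strand, at chr4:119108495-119108744 (plus strand, Slc2a1), chr3:104638414-104638663 (plus strand, Slc16a1), chr6:82774455-82774704 (minus strand, Hk2), chr2:71872974-71873223 (plus strand, Pdk1) and chr7:46845554-46845803 (plus strand, Ldha). In the sequences, capitals mark ACGTG, a form of the core of the hypoxia response element bound by HIF, read on either strand. A palindromic run of 6 capitals thus holds a match on each strand. GCGTG, another form of that core, was neither marked nor counted.
Slc2a1: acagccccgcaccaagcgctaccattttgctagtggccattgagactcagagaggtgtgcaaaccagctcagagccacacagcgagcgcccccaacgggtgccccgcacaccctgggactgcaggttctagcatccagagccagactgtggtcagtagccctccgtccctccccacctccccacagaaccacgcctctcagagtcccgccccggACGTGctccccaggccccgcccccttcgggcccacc
Slc16a1: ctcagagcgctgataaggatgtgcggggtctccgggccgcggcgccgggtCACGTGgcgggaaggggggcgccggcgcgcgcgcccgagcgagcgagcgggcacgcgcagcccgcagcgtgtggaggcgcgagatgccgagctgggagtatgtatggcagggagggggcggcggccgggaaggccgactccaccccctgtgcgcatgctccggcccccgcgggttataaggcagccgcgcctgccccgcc
Hk2: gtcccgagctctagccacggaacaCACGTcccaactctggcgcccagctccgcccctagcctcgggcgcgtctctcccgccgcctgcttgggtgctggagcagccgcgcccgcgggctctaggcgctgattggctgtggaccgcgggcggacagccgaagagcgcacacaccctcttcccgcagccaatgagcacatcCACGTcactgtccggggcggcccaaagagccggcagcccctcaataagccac
Pdk1: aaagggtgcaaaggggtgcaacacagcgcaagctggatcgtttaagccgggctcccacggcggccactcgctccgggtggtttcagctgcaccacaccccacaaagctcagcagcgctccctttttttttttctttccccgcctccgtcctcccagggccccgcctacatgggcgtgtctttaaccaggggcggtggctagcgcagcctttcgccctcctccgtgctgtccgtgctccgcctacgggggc
Ldha: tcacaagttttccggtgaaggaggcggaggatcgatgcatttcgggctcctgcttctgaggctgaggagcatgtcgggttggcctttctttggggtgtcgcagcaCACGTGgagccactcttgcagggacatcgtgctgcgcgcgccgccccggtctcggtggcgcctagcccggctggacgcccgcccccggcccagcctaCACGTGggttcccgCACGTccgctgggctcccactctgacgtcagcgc
ACGTG stood in 4 of these 5 windows and not in that of Pdk1, which does hold GCGTG. RefSeq windows were matched for 43 of the 46 genes, and 15 of the 43 held ACGTG. It stood in 16.6% of all 32851 promoters and 22.5% of the 7240 promoters of genes that reached 10 FPKM in any library. TAATCC on either strand, the core bound by the photoreceptor factors CRX and OTX2, was found in 3 of the 43, before Pfkp, Aldoc and Cs, against 6.25% of all promoters. TGCTGAC on either strand, a core bound by the rod factor NRL, was found in 0 of the 43, against 3.81%. These are matches of letters in a short window and not measured binding.

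The libraries were comparable in depth. Total read counts were not used here, so absolute depth is unknown, and relative depth, taken from how wide the deposited bounds were, differed between libraries by at most 1.17 times. Nt5e was at 0.84, 0.61, 125 and 123 FPKM, high in the Cd73P libraries of both genotypes. Ezh2 was at 14.1, 15.9, 5.38 and 3.45 FPKM and so was no lower in Cd73N of the knockout. Gene-level values cannot tell whether the floxed exon is missing, and the knockout libraries are therefore called the libraries labelled Ezh2-cKO. Xist was at 52.2, 240, 47.0 and 95.6 FPKM and 4 Y-linked genes summed to 26.8, 0.72, 27.9 and 0.50 FPKM, so sex-linked transcripts differed with genotype, and sex and genotype cannot be told apart in any comparison of genotypes. The group holds 4 X-linked genes, Pgk1, Pdha1, Pdk3 and Idh3g. Summed FPKM of 12 rod markers was 2116, 2190, 21602 and 29794. Summed cone markers (9 genes) were at 3808, 5349, 256.3 and 117 FPKM, bipolar markers (10 genes) at 2815, 1543, 224 and 71.7 FPKM, and Müller glia markers (11 genes) at 1093, 5557, 94.95 and 215 FPKM. Erythrocyte markers (5 genes) summed to 3206, 2979, 24.7 and 20.1 FPKM. Amacrine markers (6 genes) summed to 25.2, 59.4, 28.9 and 23.2 FPKM and retinal pigment epithelium markers (7 genes) to 6.18, 7.63, 14.1 and 8.30 FPKM, so these low sums were not lower in Cd73P of wild type. Taken gene by gene, 3 of the 6 amacrine markers were lower there and 1 higher, with a median log2 ratio of -0.47. Of the 7 retinal pigment epithelium markers 4 were higher and 0 lower. By these sums Cd73P was rich in rod transcripts, and cone, bipolar, Müller glia and blood transcripts were mostly in Cd73N, with some from rods. In a bulk library, fewer cells of a type and less RNA per cell cannot be told apart.

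**Figure D1:**
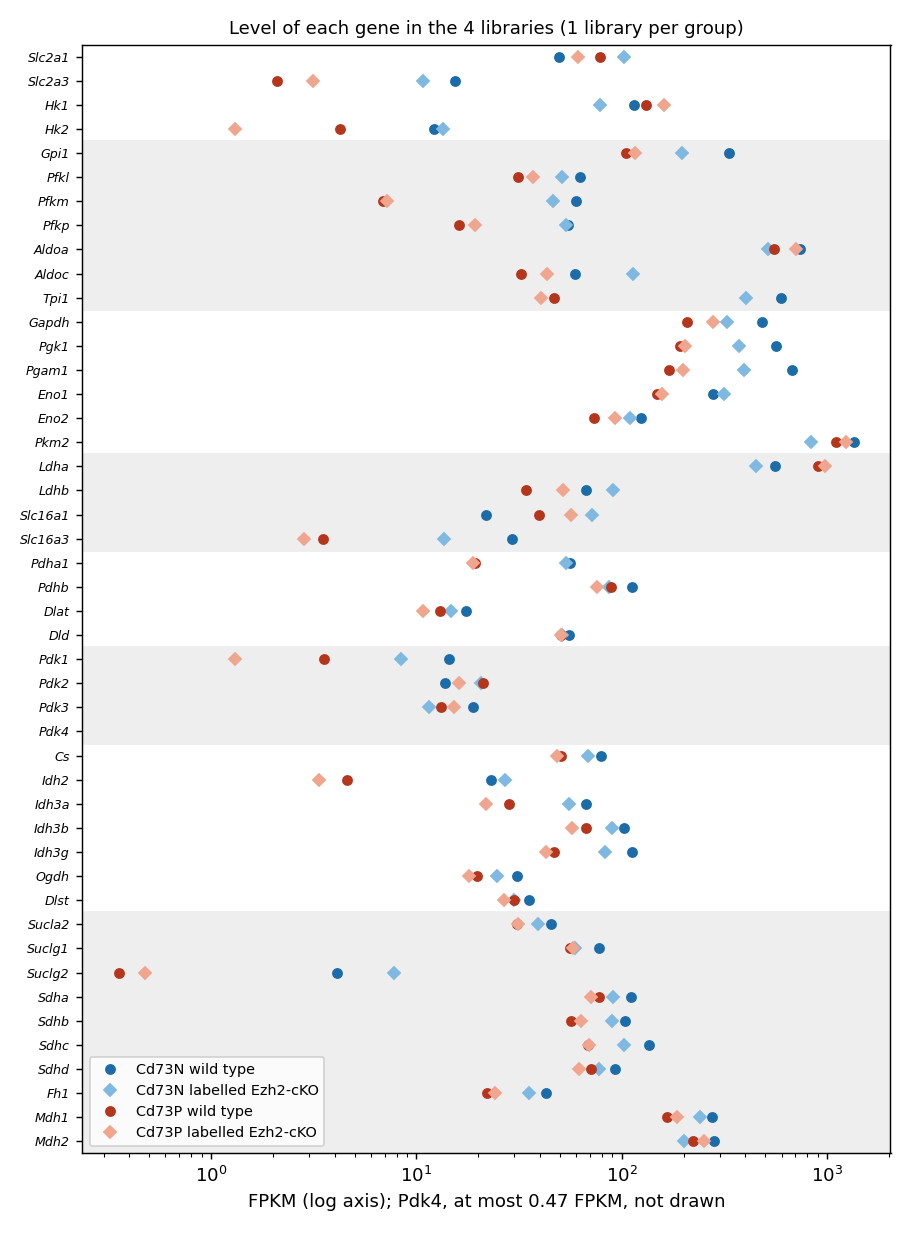
FPKM of each gene (log axis) in the 4 libraries, grouped by role, with 1 point per library. Pkm2 is the highest gene in every library, at 836 to 1347 FPKM, and Tpi1 shows the widest gap between fractions among the abundant enzymes.

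Pkm2, the last enzyme of glycolysis, was the most abundant gene of the group in all 4 libraries at 1347, 836, 1098 and 1234 FPKM, and Pdk4 was the least abundant at 0.23, 0.47, 0.00 and 0.01 FPKM. The group as a whole held 1.99%, 1.67%, 1.67% and 1.78% of the FPKM sum. The 21 genes of glucose uptake, glycolysis and lactate held 1.53%, 1.24%, 1.27% and 1.40%, and the 17 TCA cycle genes 0.396%, 0.359%, 0.333% and 0.325%. The share of the group thus varied little between libraries, and the differences lay in which genes made it up.

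Cd73P was first set against Cd73N, within each genotype, to ask how rods differ from the remaining retinal cells. In wild type, 28 of the 46 genes were lower in Cd73P, where 27.9% of all genes tested were lower, and 3 were higher (Slc2a1, Ldha and Slc16a1), where 9.08% of all genes and 16.6% of those that reached 10 FPKM were higher. The group is highly expressed, and among genes that reached 10 FPKM in at least 1 of the 2 libraries 46.3% were lower, beside 27 of 44 of the group. The median log2 ratio was -0.80, against -0.05 over all genes and -0.49 over genes that reached 10 FPKM. Among the libraries labelled Ezh2-cKO the lower genes numbered 20, where 29.1% of all genes were lower. Of genes that reached 10 FPKM, 42.1% were lower, beside 18 of 43 of the group, which is near the background. The higher ones were 2, Hk1 and Ldha (8.40% of all genes, 17.1% of those that reached 10 FPKM). The median there was -0.51, against -0.40 over genes that reached 10 FPKM. Direct comparison of FPKM depends on scaling: shifting the libraries so that the median of genes with at least 1 FPKM in both libraries did not differ raised the log2 ratios by 0.34 (wild type) and 0.27 (Ezh2-cKO), and scaling by the FPKM sum raised them by 0.42 and 0.21. After median scaling 43.5% of the group was lower in wild type, beside 33.0% of genes that reached 10 FPKM, and after sum scaling 34.8% beside 30.2%. The wild-type medians were then -0.47 beside -0.17 and -0.39 beside -0.09, and 38 and 34 of the 46 ratios were below 0. In the libraries labelled Ezh2-cKO the lower share of the group was 34.8% beside 31.9% after median scaling. After sum scaling it was 37.0% beside 34.2%.

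**Figure D2:**
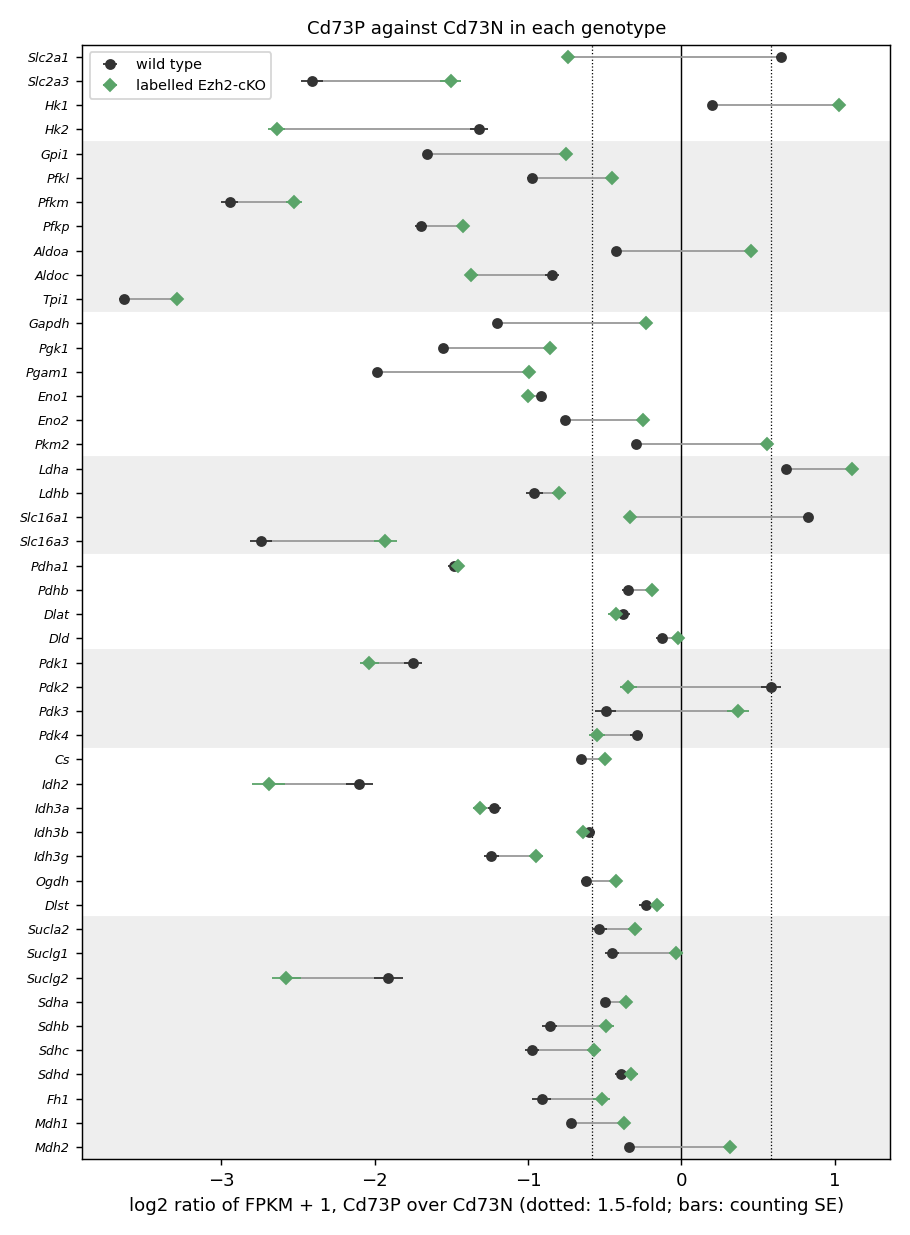
Log2 ratio of Cd73P over Cd73N for each gene, by genotype, with bars of 1 SE of counting error and the 1.5-fold threshold as dotted lines. Tpi1 lies lowest at -3.64 and -3.29, and Ldha is past the threshold on the higher side in both genotypes.

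Glucose uptake and phosphorylation were split between paralogs. Slc2a1 (GLUT1, on mm9 chromosome 4, 118781350 to 118809934), the main glucose transporter of the retina, was at 49.3, 102, 78.1 and 60.9 FPKM. It was 1.57-fold higher in Cd73P of wild type (log2 ratio 0.65, SE 0.033) and 1.67-fold lower in Cd73P of the libraries labelled Ezh2-cKO (log2 ratio -0.74, SE 0.030), a call that was lost after either scaling. Slc2a3 (GLUT3), a high-affinity transporter of neurons, was at 15.4, 10.8, 2.09 and 3.15 FPKM and so was low in both Cd73P libraries. Hk1, the hexokinase found in most tissues, was at 114, 78.4, 131 and 161 FPKM, with log2 ratios of 0.20 (wild type) and 1.03 (Ezh2-cKO). Hk2 (chromosome 6, 82675021 to 82724448), an inducible hexokinase known from photoreceptors and from tumours, was at 12.1, 13.4, 4.25 and 1.31 FPKM. It was 2.50-fold lower in Cd73P of wild type and 6.24-fold lower in Cd73P of the libraries labelled Ezh2-cKO.

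The steps from hexose phosphate to triose phosphate held the largest differences, with 6 of 7 genes lower in Cd73P of wild type and a median log2 ratio of -1.66, which was -1.33 after median scaling. Tpi1 (chromosome 6, 124760610 to 124764314), which interconverts both triose phosphates made by aldolase, was at 595, 404, 46.9 and 40.3 FPKM. It was 12.4-fold lower in Cd73P of wild type (log2 ratio -3.64, SE 0.032) and 9.79-fold lower in the libraries labelled Ezh2-cKO (-3.29, SE 0.034). Set against Gapdh within the same library, which no scaling between libraries touches, Tpi1 stood at 1.24, 1.24, 0.226 and 0.146 times the Gapdh FPKM. Pkm2 was at 2.26 and 2.07 times the Tpi1 FPKM in Cd73N and at 23.4 and 30.6 times in Cd73P. Pfkm, the muscle-type phosphofructokinase, was at 59.6, 46.3, 6.86 and 7.20 FPKM and was 7.71-fold and 5.76-fold lower in Cd73P. Pfkp, the platelet type, was at 54.8, 53.6, 16.2 and 19.4 FPKM, and Pfkl, the liver type, at 62.5, 51.1, 31.3 and 37.1 FPKM. All 3 phosphofructokinase genes, which catalyse the committed step, were thus lower in both Cd73P libraries, though Pfkl passed the threshold only in wild type and not after sum scaling. Gpi1, which isomerises glucose 6-phosphate, was at 332, 196, 104 and 116 FPKM. Aldoa, the main aldolase, was at 740, 513, 550 and 703 FPKM and stayed within the threshold in both genotypes, with log2 ratios of -0.43 and 0.45, though after either scaling it was called higher in the libraries labelled Ezh2-cKO. Aldoc, the brain aldolase, was at 58.9, 114, 32.4 and 43.4 FPKM and was lower in Cd73P of both genotypes, though not in wild type after either scaling.

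For Tpi1 the level in Cd73P was 7.89% of that in Cd73N of wild type and 9.99% of that in the libraries labelled Ezh2-cKO. Summed markers of bipolar cells stood at 7.95% and 4.65%, of Müller glia at 8.69% and 3.87%, and of cones at 6.73% and 2.18% of their Cd73N level. The part of transcripts from other cells in the Tpi1 level of Cd73P was not tested. Suclg2 was at a like level, 8.69% and 6.10%, and Pfkm at 11.5% and 15.6%.

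Between triose phosphate and pyruvate all 6 genes had negative log2 ratios in wild type, with a median of -1.06, though Pkm2 turned positive after either scaling. Pgam1 (phosphoglycerate mutase) was at 672, 395, 169 and 198 FPKM, and Pgk1 (phosphoglycerate kinase) at 566, 371, 192 and 204 FPKM. Gapdh was at 481, 326, 208 and 277 FPKM, lower in Cd73P of wild type (log2 ratio -1.20) and within the threshold in the libraries labelled Ezh2-cKO (-0.23), where the ratio turned positive after median scaling. Gapdh is a common reference gene, and its level spanned 208 to 481 FPKM here. Eno1, the widely expressed enolase, was at 279, 314, 148 and 157 FPKM, and Eno2, the neuronal enolase, at 124, 110, 73.0 and 92.3 FPKM. Pkm2 itself had log2 ratios of -0.30 (wild type) and 0.56 (Ezh2-cKO) and passed the threshold in neither, though in the second it was called higher after either scaling.

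Lactate genes went both ways. Ldha (chromosome 7, 54101174 to 54110997), the lactate dehydrogenase subunit that favours lactate formation, was at 560, 449, 900 and 973 FPKM. It was the only gene of the group past the threshold on the higher side in Cd73P of both genotypes, 1.61-fold in wild type (log2 ratio 0.68, SE 0.012) and 2.16-fold in the libraries labelled Ezh2-cKO (1.11, SE 0.012), and after sum scaling Hk1 joined it. Ldhb, the subunit that favours lactate use, was at 67.1, 90.7, 34.0 and 51.8 FPKM and was lower in Cd73P of both, a call lost in wild type after sum scaling and in the libraries labelled Ezh2-cKO after median scaling. Slc16a1 (MCT1, chromosome 3, 104442591 to 104462385), a transporter of lactate and pyruvate, was at 21.8, 71.8, 39.4 and 56.7 FPKM. It was 1.77-fold higher in Cd73P of wild type (log2 ratio 0.83, SE 0.034), and in the libraries labelled Ezh2-cKO its log2 ratio was -0.34. Slc16a3 (MCT4), the transporter known for lactate export from glycolytic cells, was at 29.1, 13.7, 3.50 and 2.84 FPKM and was 6.68-fold and 3.82-fold lower in Cd73P.

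Pyruvate dehydrogenase links glycolysis to the TCA cycle, and of its 4 genes only Pdha1, the catalytic alpha subunit, passed the threshold, at 55.8, 53.5, 19.4 and 18.8 FPKM with log2 ratios of -1.48 and -1.46. Pdhb (beta subunit) was at 113, 86.9, 88.2 and 75.8 FPKM, Dlat (the acetyl transferase) at 17.4, 14.8, 13.1 and 10.7 FPKM, and Dld (the dehydrogenase shared with other complexes) at 55.1, 51.0, 50.3 and 50.3 FPKM. The subunit genes of 1 complex therefore differed in their ratios. Of the kinases that switch the complex off, Pdk1 (chromosome 2, 71711329 to 71741915) was at 14.4, 8.45, 3.57 and 1.30 FPKM and was lower in Cd73P by 3.37-fold and 4.10-fold. Pdk2 was at 13.8, 20.7, 21.2 and 16.1 FPKM and Pdk3 at 18.9, 11.5, 13.1 and 15.2 FPKM. Both stayed within the threshold in both genotypes, Pdk2 only just so in wild type with a log2 ratio of 0.58. Pdk2 was called higher in wild type after either scaling and with a pseudocount of 0.1, and Pdk3 in the libraries labelled Ezh2-cKO after median scaling.

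The TCA cycle genes had mostly lower levels in Cd73P, with smaller differences. In wild type 11 of the 17 passed the threshold, beside 27.9% of all genes and 46.3% of those that reached 10 FPKM. After median scaling 6 of the 17 did, beside 33.0% of genes that reached 10 FPKM. After sum scaling 4 did, beside 30.2%, so the scaled counts were near or below the background. All 17 log2 ratios were negative. That of Dlst turned positive after median scaling, and those of Dlst, Sdhd and Mdh2 after sum scaling. Idh2, the mitochondrial NADP-dependent isocitrate dehydrogenase, was at 23.1, 27.1, 4.61 and 3.34 FPKM and was 4.29-fold and 6.47-fold lower. Suclg2, the GTP-forming beta subunit of succinate-CoA ligase, was at 4.11, 7.82, 0.36 and 0.48 FPKM, the lowest Cd73P levels of the cycle relative to Cd73N, while Sucla2, the ATP-forming beta subunit, was at 45.3, 38.9, 31.0 and 31.4 FPKM and within the threshold. The 3 subunits of NAD-dependent isocitrate dehydrogenase were lower in Cd73P of both genotypes, of which Idh3b lost the call after either scaling. Idh3a was at 67.1, 55.4, 28.3 and 21.7 FPKM, Idh3b at 102, 89.6, 67.0 and 57.1 FPKM, and Idh3g at 112, 83.1, 46.9 and 42.6 FPKM. In the libraries labelled Ezh2-cKO these 3, Idh2 and Suclg2 were the 5 of 17 TCA genes past the threshold. Beside them, 29.1% of all genes and 42.1% of those that reached 10 FPKM were lower.

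The remaining TCA genes differed less. Citrate synthase (Cs) was at 79.6, 68.6, 50.3 and 48.2 FPKM, and the 2-oxoglutarate dehydrogenase genes Ogdh and Dlst at 30.9, 24.7, 19.8 and 18.1 FPKM and at 35.5, 29.9, 30.01 and 26.7 FPKM. Cs and Ogdh passed the threshold in wild type only, and not after either scaling. Suclg1, the shared alpha subunit of succinate-CoA ligase, was at 77.3, 59.5, 56.2 and 58.1 FPKM. The 4 succinate dehydrogenase genes, which also form respiratory complex II, were between 56.5 and 136 FPKM and had log2 ratios between -0.98 (Sdhc) and -0.39 (Sdhd) in wild type, against -0.57 (Sdhc) to -0.33 (Sdhd) in the libraries labelled Ezh2-cKO. Sdhb and Sdhc passed the threshold in wild type and Sdha and Sdhd did not, and after sum scaling neither Sdhb nor Sdhc did. Fumarase (Fh1) was at 42.6, 35.1, 22.2 and 24.2 FPKM, cytosolic malate dehydrogenase (Mdh1) at 274, 240, 166 and 185 FPKM, and mitochondrial malate dehydrogenase (Mdh2) at 281, 201, 222 and 250 FPKM. Fh1 and Mdh1 passed the threshold in wild type only, and not after sum scaling.

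The genotypes were compared within each fraction to ask how the group stood where Ezh2 was targeted. The comparisons of genotype and of fraction share libraries, so their values are given side by side and not correlated. In Cd73N, 7 of the 46 genes had a lower level in the library labelled Ezh2-cKO, where 1.71% of all genes and 3.64% of genes that reached 10 FPKM were lower. Another 4 were higher, where 7.18% of all genes and 8.06% of genes that reached 10 FPKM were higher. The median log2 ratio was -0.27, against 0.00 over all genes and -0.16 over genes that reached 10 FPKM. In Cd73P, 2 genes were lower (2.39% of all genes, 2.08% of those that reached 10 FPKM) and 1 was higher (2.26% and 3.25%), which is near the background, and the median was 0.05 against 0.00. Median scaling shifted the log2 ratios by 0.06 in Cd73N and 0.04 in Cd73P, and sum scaling by 0.15 and -0.05.

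**Figure D3:**
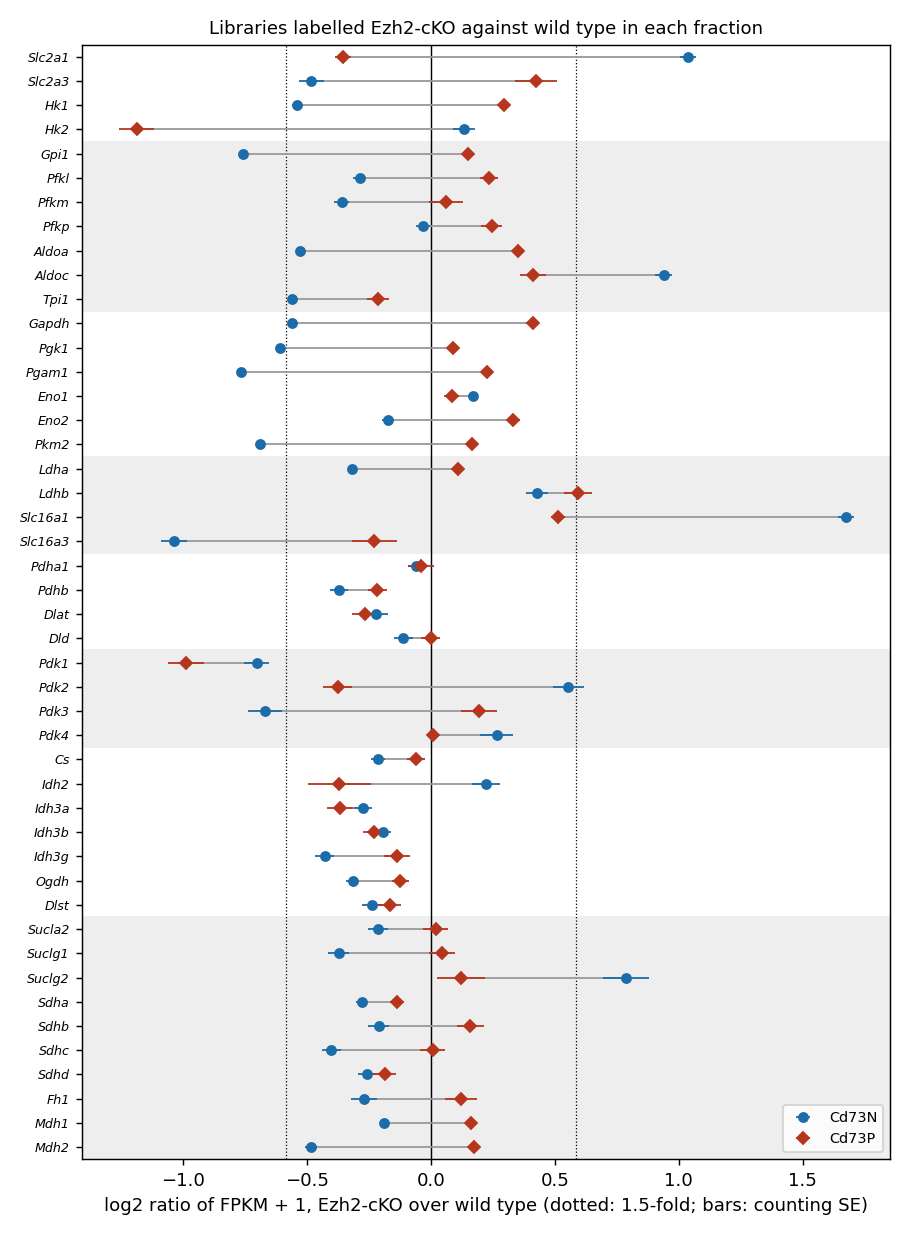
Log2 ratio of the library labelled Ezh2-cKO over wild type for each gene in Cd73N and in Cd73P, with bars of 1 SE of counting error and the 1.5-fold threshold as dotted lines. Slc16a1 (1.67) and Slc2a1 (1.04) lie highest in Cd73N, while Hk2 (-1.19) and Pdk1 (-0.99) lie lowest in Cd73P.

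The 4 genes higher in Cd73N of the library labelled Ezh2-cKO were Slc16a1, 3.19-fold (log2 ratio 1.67, SE 0.031), Slc2a1, 2.05-fold (1.04, SE 0.031), Aldoc, 1.92-fold (0.94, SE 0.035), and Suclg2, 1.73-fold (0.79, SE 0.094). They stayed past the threshold after either scaling, and Suclg2 lost the call with a pseudocount of 5. In Cd73P the same ratios were 0.51, -0.35, 0.41 and 0.12. All 11 Müller glia markers were also past the threshold on the higher side in Cd73N, with a median log2 ratio of 2.1 and sums of 1093 and 5557 FPKM, and 8 of 11 were in Cd73P, with sums of 94.95 and 215 FPKM. Other markers were past the threshold on the higher side in Cd73N as well. These were 4 of 7 for microglia, 3 of 9 for cones, and 2 of 8 for endothelial cells and pericytes. For amacrine cells they were 2 of 6, and for ganglion cells 2 of 8, with 1 lower. Endothelial and pericyte sums were 223 and 341 FPKM, and microglia sums 87.2 and 130 FPKM. The part of these cell types in the level of the 4 genes was not tested.

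The 7 genes lower in Cd73N of the library labelled Ezh2-cKO were Slc16a3, Pgam1, Gpi1, Pdk1, Pkm2, Pdk3 and Pgk1. Slc16a3 was the farthest from 0, 2.05-fold lower (log2 ratio -1.04, SE 0.052). The other 6 lay between -0.76 (Pgam1) and -0.61 (Pgk1), and Pgk1, Pkm2, Pdk1 and Pdk3 were no longer past the threshold after sum scaling, nor Pgk1 after median scaling. Among the enzymes from Gapdh to Pkm2, 5 of 6 had a negative ratio, with a median of -0.59, and Eno1 stood apart at 0.17. Bipolar markers were lower in the same library, 7 of 10 past the threshold with sums of 2815 and 1543 FPKM. Their part in the lower levels was not tested.

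In Cd73P most glycolytic enzymes had small positive ratios and the first TCA steps small negative ones, all within the threshold. From Gapdh to Pkm2 all 6 log2 ratios were positive, between 0.09 and 0.41 with a median of 0.20, and all 7 TCA genes from citrate to succinyl-CoA were negative, between -0.37 and -0.06 with a median of -0.16. Both signs held after either scaling. The lower genes were Hk2, 2.28-fold (log2 ratio -1.19, SE 0.070), and Pdk1, 1.98-fold (-0.99, SE 0.072), and the higher gene was Ldhb, 1.51-fold (0.59, SE 0.057). All 3 lost the call with a pseudocount of 5, and Ldhb also after sum scaling. Both lower genes were at 4.25 FPKM or less in Cd73P. In the same library 7 of 9 cone markers and 8 of 10 bipolar markers were lower, with sums of 256.3 and 117 FPKM and of 224 and 71.7 FPKM, and 2 of 12 rod markers were higher. Their part in the lower Hk2 and Pdk1 levels was not tested.

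The direction of the genotype ratio was counted in each fraction. Of the 46 genes, 21 had a negative ratio in Cd73N and a positive one in Cd73P, 4 had the opposite pattern (Slc2a1, Hk2, Pdk2 and Idh2), 15 were negative in both and 6 were positive in both. The same counts over all genes were not made, so these have no background beside them. After median scaling, 4385 of 6865 genes that reached 10 FPKM were below 0 in Cd73N, and 2770 of 5636 were above 0 in Cd73P. Median or sum scaling changed the sign for Pfkp, Pdha1 and Dld in Cd73N, and for Pdha1, Dld, Sucla2 and Sdhc in Cd73P. Pdk1 was the only gene past the threshold in the same direction in both fractions, at -0.70 in Cd73N and -0.99 in Cd73P, and it lost both calls with a pseudocount of 5 and the Cd73N call after sum scaling.

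Shares of paralogs within a step were then computed in each library, since they do not depend on scaling. Among the pair of monocarboxylate transporters, Slc16a1 held 42.8%, 84.0%, 91.8% and 95.2% of the summed FPKM, so the wild-type Cd73N library differed from the other 3. Slc2a1 held 76.2%, 90.5%, 97.4% and 95.1% of the pair of glucose transporters. Hk2 held 9.59%, 14.6%, 3.14% and 0.805% of the hexokinase sum. Pfkm held 33.7%, 30.7%, 12.6% and 11.3% of the phosphofructokinase sum, which was 177, 151, 54.4 and 63.6 FPKM, and Pfkl held 35.3%, 33.8%, 57.6% and 58.3%. Phosphofructokinase was thus spread about evenly over its 3 genes in Cd73N and held mostly by Pfkl in Cd73P, in both genotypes.

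Ldhb held 10.7%, 16.8%, 3.64% and 5.06% of the lactate dehydrogenase sum, which was 627, 540, 934 and 1024 FPKM. Aldoc held 7.37%, 18.2%, 5.56% and 5.82% of the aldolase sum, and Eno2 30.7%, 25.9%, 33.1% and 37.0% of the enolase sum. Among the 4 kinases Pdk1 held 30.4%, 20.5%, 9.42% and 4.001%, Pdk2 29.1%, 50.3%, 55.9% and 49.4%, and Pdk3 40.0%, 27.99%, 34.7% and 46.6%. Suclg2 held 8.31%, 16.7%, 1.14% and 1.49% of the succinate-CoA ligase beta sum. The paralogs Slc2a3, Hk2, Aldoc, Ldhb, Slc16a3 and Suclg2 all held a smaller share in Cd73P than in Cd73N of the same genotype.

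**Figure D4:**
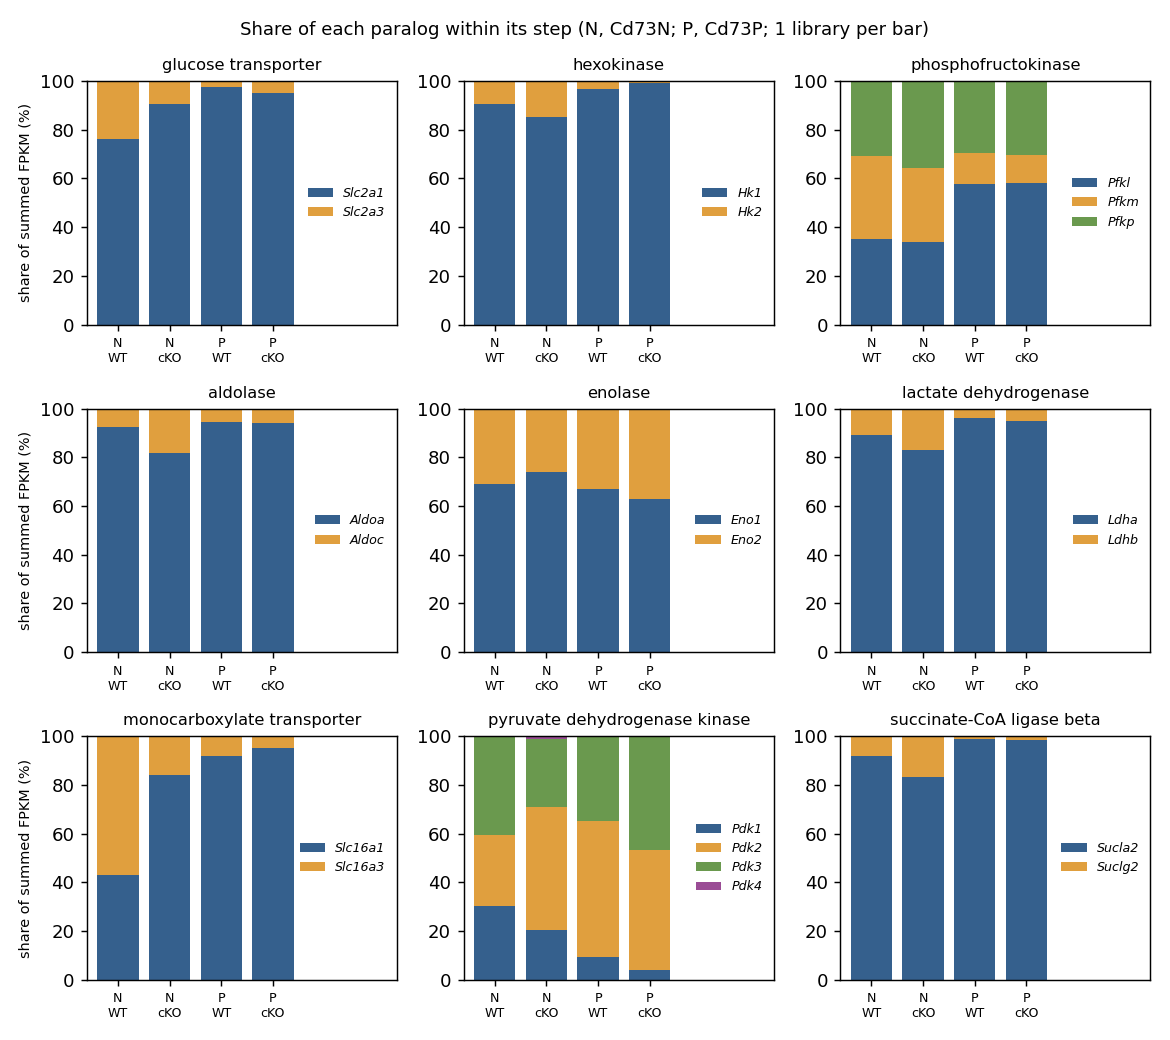
Share of the summed FPKM of a step held by each paralog (percent) in the 4 libraries, 1 bar per library. Slc16a1 goes from 42.8% in Cd73N wild type to at least 84.0% in the other 3 libraries, and Pfkm from at least 30.7% in Cd73N to at most 12.6% in Cd73P.

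Because the reads were 36 bases long, each gene was checked for sequence that also stands elsewhere in the genome. Of the 36-base windows in the annotated exons, 93.7% were repeated elsewhere for Pgk1, 93.5% for Pgam1, 79.6% for Gapdh, 56.3% for Pkm2 and 52.4% for Eno1. These levels are uncertain, since reads could be shared with near-identical copies. Aldoa was at 22.4%, Tpi1 at 30.6%, Ldha at 37.6%, Ldhb at 39.0%, Gpi1 at 44.0%, Suclg2 at 45.9% and Pdhb at 47.7%. In contrast, 33 of the 46 genes, Slc2a1, Slc16a1, Hk2, Pdk1 and Pfkm among them, were under 5%. Without the 12 genes over 20%, the wild-type median for the fractions was -0.69. Exons of other genes on the opposite strand covered 15.6% of the Slc16a3 exon bases, 16.0% of those of Pdha1 and 16.5% of those of Gpi1, and reads of such pairs cannot be told apart without strand.

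**Figure D5:**
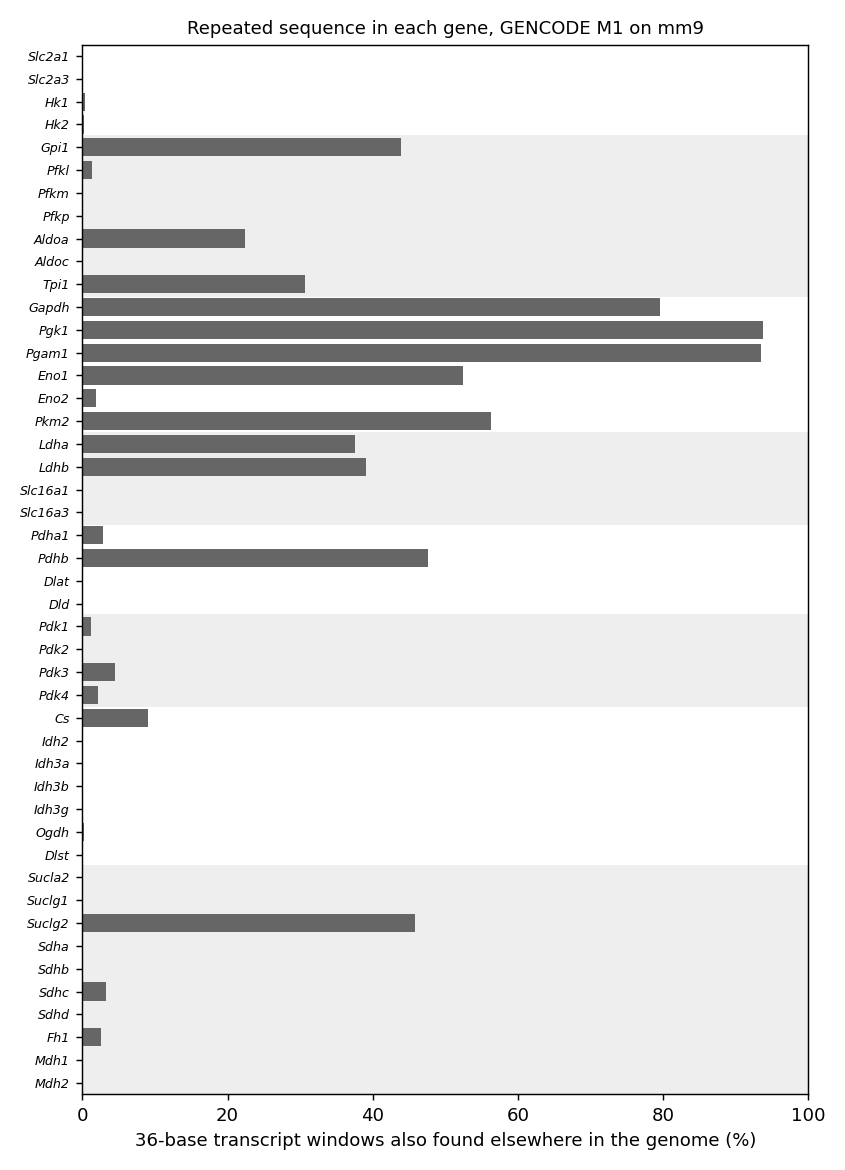
Percent of the 36-base windows of each gene's exons that are also found elsewhere in the mm9 genome, by gene. Pgk1, Pgam1, Gapdh, Pkm2 and Eno1 exceed 50%, and 33 of 46 genes are under 5%.

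Beyond the group, 76 further genes of linked pathways were counted from lists. In Cd73P of wild type 39 were lower, beside 27.9% of all genes, and 7 higher, near the 9.08% of all genes. The libraries labelled Ezh2-cKO had 33 lower, beside 29.1%, and 6 higher, near the 8.40% of all genes. The glycogen list was lower almost throughout, 8 of 9 in wild type and 7 of 9 in the libraries labelled Ezh2-cKO, with glycogen phosphorylase Pygm at 97.8, 89.8, 7.63 and 5.35 FPKM. Of the pentose phosphate genes, 5 of 7 and 3 of 7 were lower, with transketolase (Tkt) at 45.0, 39.6, 7.27 and 4.51 FPKM. Both subunits of the mitochondrial pyruvate carrier, listed as Brp44 and Brp44l, were lower in Cd73P, at 72.2, 64.6, 34.7 and 33.3 FPKM and at 51.2, 46.6, 17.3 and 14.9 FPKM. In contrast, Pfkfb2, which makes the allosteric activator of phosphofructokinase, was at 11.9, 17.2, 108 and 155 FPKM, 3.08 and 3.10 log2 units higher in Cd73P. Nxnl1, which encodes the rod-derived cone viability factor, was at 7.59, 9.58, 106 and 147 FPKM. Bsg (basigin), the partner of the monocarboxylate transporters, was at 498, 509, 175 and 171 FPKM, with log2 ratios of -1.504 and -1.57.

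Between genotypes, 7 of the 76 were higher in Cd73N of the library labelled Ezh2-cKO (7.18% of all genes) and 3 lower (1.71%), while in Cd73P 0 were higher (2.26%) and 3 lower (2.39%). In Cd73N the glycogen branching enzyme Gbe1 was at 9.38 and 22.0 FPKM and the brain glycogen phosphorylase Pygb at 14.1 and 31.8 FPKM. Of the 12 HIF genes and HIF targets, 2 were higher and 3 lower in Cd73N. Vegfa, the vascular growth factor, was at 36.5, 87.2, 4.10 and 2.42 FPKM, whereas Ndrg1 was at 99.5, 54.0, 430 and 287 FPKM, Bnip3 at 117, 72.8, 16.3 and 10.1 FPKM, and Ankrd37 at 49.9, 27.7, 11.7 and 9.12 FPKM. The HIF targets named here thus differed in both directions. Hif1a was at 177, 120, 234 and 234 FPKM, named here after its values were seen.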

How the data were processed

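Poly(A) RNA of 4 sorted samples was sequenced as 36-base single-end reads. The authors aligned the reads to mm9 with TopHat2 2.0.8b (coverage search, at most 50 hits kept for a read), and the deposited FPKM values were computed by the authors with Cufflinks 2.1.1 on RefSeq genes. bcl2fastq 1.8.4 is also named in the submitters' processing notes. Tables held 23021 lines with FPKM, a lower and an upper bound and a status, and FPKM was not scaled between libraries. Every per-sample value column was assigned to a sample.

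Lines sharing a symbol were summed (235 symbols) and 726 symbols of small RNAs were dropped, leaving 21832 genes. Genes without OK status in either library of a pair were left out of that pair. Ratios were log2(FPKM + 1), and calls were made at 1.5-fold. The width of the deposited bounds was taken as 4 SE, relative to their midpoint, which gives counting error only. Reads are not unique molecules, so no interval covers amplification. Groups came from sample titles. With 1 library per group no test was made.

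Coordinates are on mm9 with 1 added to the listed start. After that, 15 of 46 starts equalled GENCODE M1 starts on the same build, against 1 without it. Windows of 36 bases and exon overlaps used the same annotation. Promoters came from RefSeq on GRCm38.p6 and no coordinates were converted.

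All 46 genes were named. Of the other pathway lists, up to 3 genes per list and comparison with at least 10 FPKM in 1 of the 2 libraries and past 1.5-fold were eligible to be named, in order of their log2 ratio. Of these lists Tigar, and by symbol Mpc1 and Mpc2, and of the amacrine markers Tfap2a and Tfap2b, were not analysed here, and 1 marker is not reported here. The genes and lists were chosen with earlier results of these data known. Alternatives were pseudocounts of 0.1 and 5, median and FPKM sum scaling, a 2-fold threshold, a minimum of 10 FPKM and no pseudocount. Others were calls only where the deposited bounds did not overlap, leaving out genes on more than 1 line, and any status. Leaving out chromosome X or genes with over 20% repeated windows, and the midpoint of the bounds in place of FPKM, were added after the data were seen. Scripts ran in Python 3.11.15 with pandas 2.3.3, numpy 2.4.6 and matplotlib 3.10.9, and were tested on simulated data.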

Additional observations from a re-analysis of the deposited data

Results flagged for a closer look

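For 14 genes the genotype log2 ratio had opposite signs in the fractions and differed between them by at least 1.5-fold, and with 1 library per group this difference was not tested. The share of all genes that meet the same rule was not computed, so the count has no background beside it. The Cd73P ratio minus the Cd73N ratio was negative for 4 of the 14, -1.39 for Slc2a1, -1.32 for Hk2, -0.93 for Pdk2 and -0.59 for Idh2. It was positive for 10: 0.99 for Pgam1, 0.97 for Gapdh, 0.91 for Gpi1, 0.91 for Slc2a3 and 0.88 for Aldoa. The rest were 0.86 for Pdk3 and for Pkm2, 0.83 for Hk1, 0.70 for Pgk1 and 0.66 for Mdh2. Pgam1, Pgk1, Gapdh and Pkm2 are among the genes in which over 50% of the 36-base windows are repeated elsewhere in the genome, whereas Slc2a1, Hk2 and Hk1 are under 5%. The part of repeated sequence and of the mixture of cells in these differences was not tested.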

How the results depend on the processing

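Each of the 12 counts and medians was recomputed under the alternatives, and 121 of 148 values stayed within 1.5 times of the count or 0.1 of the median. These values include leaving out genes on more than 1 line and accepting any status. Neither setting could move a value, since all 46 genes were on a single line with OK status. No called gene could change direction under the pseudocounts and scalings. A pseudocount keeps the sign of a ratio, and the scaling shifts, at most 0.42, were below the threshold of 0.585 on the log2 scale. The cause of the moves was not tested. For Cd73P against Cd73N in wild type, median scaling gave a median of -0.47, and sum scaling gave 5 higher, 16 lower and a median of -0.39. The 2-fold threshold gave 0 higher and 16 lower, and leaving out the 12 genes with repeated windows gave a median of -0.69. In the libraries labelled Ezh2-cKO, median scaling gave 6 higher and a median of -0.24, and sum scaling 4 higher and a median of -0.30. The 2-fold threshold gave 12 lower, and without repeated-window genes there were 1 higher and 13 lower. For the genotypes in Cd73N, sum scaling gave 3 lower and a median of -0.13, the 2-fold threshold 2 higher and 1 lower, and leaving out repeated-window genes 3 lower. In Cd73P a pseudocount of 5 gave 0 higher and 0 lower, sum scaling 0 higher, and the 2-fold threshold 0 higher and 1 lower. A minimum of 10 FPKM gave 0 lower, no pseudocount 2 higher, and leaving out repeated-window genes 0 higher. Paralog shares taken from the deposited bounds moved by at most 2.53 percentage points. No paired analysis was possible because there was 1 library per group. Absolute depth is unknown, which limits what can be said of genes near 1 FPKM such as Pdk4, Suclg2 and Hk2.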

Other observations

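FPKM lay above its own deposited upper bound in 110 of the 184 values of the group, and for 25 genes in all 4 libraries. The ratio of FPKM to the midpoint of the bounds differed between libraries by at most 7.24% over the 44 genes with at least 1 FPKM throughout. For Gapdh, 695 of 1492 windows of 36 bases had more than 50 places in the genome, the limit of hits set in the alignment.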
